A study of Mus musculus with 14 samples.

Results

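The Hox cluster genes were examined in 7 types of neuron from the medial vestibular nucleus of the mouse, a brainstem nucleus that receives signals of head motion from the inner ear. Members were all genes whose symbol in the platform annotation begins with Hoxa, Hoxb, Hoxc or Hoxd followed by a number. There were 32 such genes among 16244 genes with a probe set of their own: 29 coding genes and 3 antisense transcripts (Hoxb5os, Hoxd3os1 and Hoxa11os). RefSeq lists 39 coding genes in the 4 clusters, and the other 10 were not analysed here apart from 1 shared probe set. A gene was represented by the probe set with its highest mean over 14 arrays, and values are log2 signals.

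Of the 7 pools, E1 and E2 are excitatory by the study's names. The inhibitory ones form the families I1 (I1a and I1b), I2 and I3 (I3a and I3b). The design names a further type, E3, which was not analysed here. Each pool joined amplified cDNA of single neurons of 1 type and was read on 2 arrays, which are technical replicates. All pools carry the same labels: mice of the YFP-16, GIN and GlyT2-13 lines on the C57BL/6 background, 24 to 32 days old. In YFP-16 the reporter is driven by Thy1 sequences, in GIN by those of Gad1, and in GlyT2-13 by those of Slc6a5. Which line gave the cells of which pool is not in the labels. With 1 pool per type, a difference between single types compares pools, and its error is technical.

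Hox genes encode homeodomain transcription factors that give segments of the embryonic hindbrain and spinal cord their position along the body axis. They lie in 4 clusters, and the genes of like position in each cluster form a paralogue group. Genes at the 3′ end of a cluster, with low group numbers, are used from the hindbrain backwards, and those with high numbers in the caudal spinal cord. The vestibular nuclei arise from several hindbrain segments. Hox proteins bind DNA together with Pbx and Meis homeodomain proteins.

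Hoxb3 and Hoxa5 were the 2 members with a mean of at least 5 in any pool, and both lay above 5 on all 14 arrays. That is 2 of 32 Hox genes (6.25%), beside 4409 of 16244 genes (27.1%). Hoxb3, of paralogue group 3, belongs to the genes of the caudal hindbrain and the pharyngeal arches. Hoxa5, of group 5, is known for its part in the neck and upper thoracic segments and in the lung. Both lie in the anterior portion of the family: of 12 coding genes of groups 1 to 5, 2 reached 5, and of 17 coding genes of groups 6 to 13, none did. Levels of different probe sets are not compared with each other, and each is read here against 5 and against its own lowest value. The threshold has no test, and the number of arrays limits the precision of the levels.

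**Figure D1:**
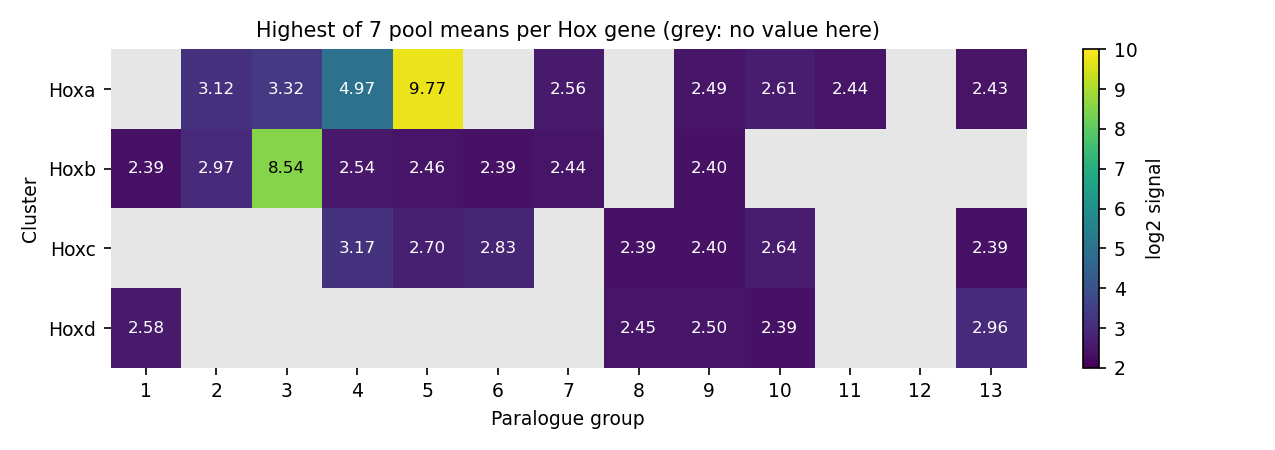
Highest of the 7 pool means (log2 signal, colour and number) for each of 29 coding Hox genes, by cluster (rows) and paralogue group (columns), with grey for positions without a value. Values are read against 5, not against each other. Hoxb3 at 8.54 and Hoxa5 at 9.77 are above 5, Hoxa4 at 4.97 is just under it, and all genes of groups 6 to 13 lie at 2.96 or below.

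Both genes lie in stretches of DNA that they share with other transcripts, by the RefSeq annotation of GRCm38.p6. Hoxb3 (Entrez gene 15410) spans chr11:96307101-96347930, and this span holds Hoxb4 (chr11:96318267-96321638) and the microRNA gene Mir10a, and shares 4897 bases with the span of a noncoding gene, Hoxb3os. Hoxa5 (Entrez gene 15402) spans chr6:52201754-52204587 and lies wholly within the spans of Hoxa3 and of the noncoding gene Hoxaas3. The annotation names the gene of each probe set but not its strand or exon, so these overlaps were not resolved further. Hoxb4, a group 4 gene, had pool means of 2.39 to 2.54 on its own probe set. Hoxa3, whose span covers Hoxa5, had a highest pool mean of 3.32 on the highest of its 3 probe sets.

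MicroRNAs of the clusters were not measured by the probe sets used, and 2 mature sequences are shown because their genes lie in the stretch that gave a signal and in one that did not. miR-10a-5p is encoded on the plus strand at chr11:96317186-96317208, inside the span of Hoxb3. miR-196b-5p is encoded on the minus strand at chr6:52230129-52230150, between Hoxa9 and Hoxa10, which had highest pool means of 2.49 and 2.61. Sequences are RefSeq's, 5′ to 3′, with the seed (bases 2 to 8) in capitals.
miR-10a-5p: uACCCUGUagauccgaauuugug
miR-196b-5p: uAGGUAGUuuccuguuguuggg
A further member of the first seed family, miR-10b-5p, lies in the Hoxd cluster at chr2:74726074-74726096. It differs from miR-10a-5p at 1 of 23 bases and shares its seed.

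Upstream sequence was in the RefSeq table for 18 of the 32 members, Hoxa5 among them. Windows of 250 bases before the annotated start are shown for a pair of genes: that of Hoxa5, which was read on every array, and that of Hoxb4, which lies inside the span of Hoxb3 and stayed near the floor. Capitals mark TAAT on either strand (ATTA on the strand printed), the core that homeodomains bind.
Hoxa5, chr6:52204588-52204837, minus strand: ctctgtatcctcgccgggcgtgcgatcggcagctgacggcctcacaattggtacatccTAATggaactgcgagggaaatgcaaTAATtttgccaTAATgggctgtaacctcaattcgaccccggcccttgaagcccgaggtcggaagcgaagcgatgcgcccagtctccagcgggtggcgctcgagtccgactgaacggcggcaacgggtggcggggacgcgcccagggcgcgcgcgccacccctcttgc
Hoxb4, chr11:96318017-96318266, plus strand: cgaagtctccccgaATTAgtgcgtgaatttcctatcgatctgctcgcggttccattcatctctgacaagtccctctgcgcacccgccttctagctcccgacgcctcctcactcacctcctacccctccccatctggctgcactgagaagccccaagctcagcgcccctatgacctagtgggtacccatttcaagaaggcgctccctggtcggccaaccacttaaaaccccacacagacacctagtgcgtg
The Hoxa5 window holds 3 such cores and the Hoxb4 window 1. Over all 32851 windows of this length 54.9% hold at least 1, and over the 19 windows of Hox members 63.2%. The longer motif TGATNNAT, which Pbx and Hox proteins bind together, was in neither of the windows shown, and 7.68% of all windows hold it on either strand. The Hoxa5 window has 28 CpG dinucleotides and the Hoxb4 window 14, beside a median of 13 over Hox windows and 6 over all windows. Windows of Hoxa13 and Hoxd13 have 35 and 31, and these genes had highest pool means of 2.43 and 2.96. A motif match is a description of the letters only.

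Hoxb3 read 8.78 and 8.30 on the 2 arrays of I3a and 8.43 and 8.60 on those of I3b. It read 6.99 and 7.19 in E2, 6.99 and 6.87 in I1b, and 6.37 and 6.71 in I2. In E1 it read 5.89 and 6.00, and in I1a 5.56 and 5.61. The I3 pools therefore stood above all others, with no array of another pool reaching them, and I1a was lowest. Between pools the standard deviation of Hoxb3 was 1.15 (n = 7), and between arrays of the same pool it was 0.18. A limma F test over the 14 arrays called Hoxb3, with 2.95 log2 units between the highest and the lowest pool (adjusted p 8.83e-08). This test has technical error only and called 55.2% of the 4409 genes.

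In the order of levels, I1a (5.59) was followed by E1 (5.95), I2 (6.54), I1b (6.93), E2 (7.09), I3b (8.51) and I3a (8.54). I3b and I3a differed by 0.03, with a 95% interval of -0.35 to 0.40 from the technical error. I1b and E2 differed by 0.16 (interval -0.21 to 0.53) and I1a and E1 by 0.36 (interval -0.01 to 0.74). Those 3 intervals took in both negative and positive values. The widest step lay between E2 and I3b, at 1.43 with an interval of 1.05 to 1.80. The order set 1 excitatory pool low and the other in the middle, so Hoxb3 did not part E from I pools.

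**Figure D2:**
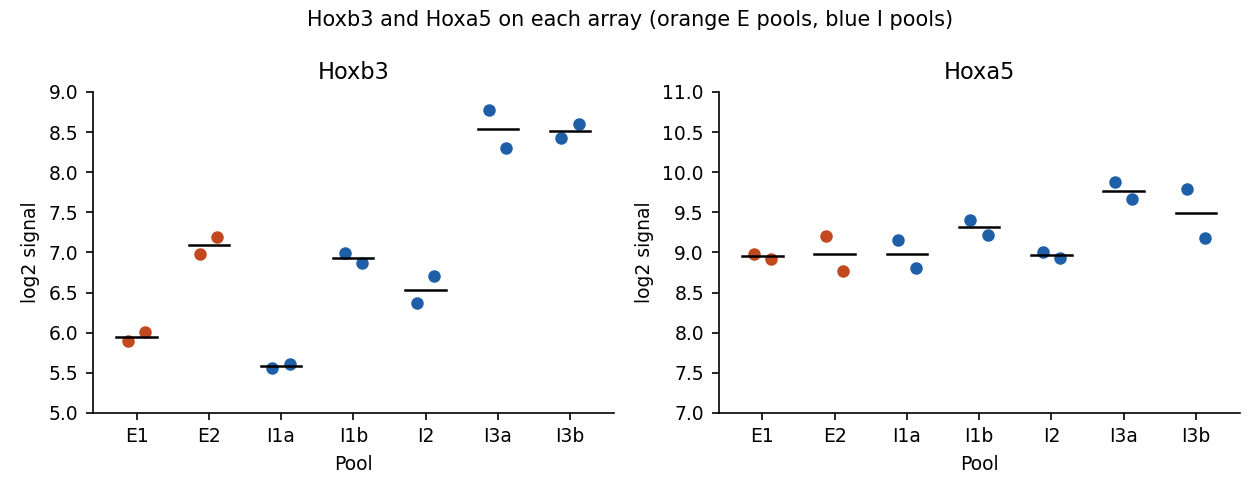
Log2 signal of Hoxb3 (left) and Hoxa5 (right) on each of the 2 arrays of each pool (points; orange for E pools, blue for I pools), with the pool mean as a bar, on axes of equal span that start at different values. Hoxb3 runs from 5.59 in I1a to 8.54 in I3a, while Hoxa5 stays between 8.95 and 9.77.

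Hoxa5 read 9.87 and 9.67 in I3a, 9.79 and 9.18 in I3b, and 9.41 and 9.22 in I1b. It read 9.20 and 8.77 in E2, 9.16 and 8.80 in I1a, 9.01 and 8.93 in I2, and 8.98 and 8.92 in E1. The I3 pools were again highest, but arrays of I3b overlapped those of I1b and E2. The technical intervals of all 6 steps between neighbouring pools took in both negative and positive values. The standard deviation of Hoxa5 was 0.32 between pools (n = 7) and 0.24 between arrays of a pool. The limma F test gave an adjusted p of 0.0090, but the gap between the highest and the lowest pool was 0.82 log2 units, under the 1 unit required for a call. Of the 4409 genes 30.9% had a narrower range over pools than Hoxa5, and 92.2% a narrower one than Hoxb3.

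The probe set behind Hoxa5 bears the suffix _x_at, by which the manufacturer marks sets that can contain probes matching other sequences, and the annotation lists no accession for it. It was the only Hoxa5 probe set in the table. Hoxb3 also rested on 1 probe set, without such a suffix. What the Hoxa5 probe set binds was not tested.

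The excitatory and inhibitory pools were compared first, on 7 pool means, to ask whether Hox levels go with transmitter class. Hoxb3 had a mean of 6.52 in the 2 E pools and 7.22 in the 5 I pools, a difference of -0.70 (SE 0.84, adjusted p 0.875 by limma). Hoxa5 had means of 8.97 and 9.30, a difference of -0.34 (SE 0.26, adjusted p 0.809 by limma). The groups overlapped for both genes. No Hox gene was called, nor did either have an unadjusted p under 0.05, in a comparison that called 1 of 4409 genes (0.0227%). The 95% intervals, -2.65 to 1.24 for Hoxb3 and -0.95 to 0.27 for Hoxa5, leave room for differences of more than 1 log2 unit in Hoxb3.

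Between the I1 and I3 families Hoxb3 had the wider contrast. It stood at 5.59 in I1a and 6.93 in I1b, against 8.54 in I3a and 8.51 in I3b, and the families did not overlap. That is a description only, as the share of all genes without such overlap is not given here. The difference, I1 minus I3, was -2.27 (SE 0.56, 95% interval -3.65 to -0.89). It was not called, with an unadjusted p of 0.0072 and an adjusted p of 0.287 by limma over 4409 genes, none of which was called (0%) and 496 of which had an unadjusted p under 0.05. In absolute size it was 64th of 4409. Hoxa5 differed in the same direction by -0.48 (SE 0.23, adjusted p 0.520 by limma), also without overlap of the pool means. When single arrays were fitted instead of pool means, and pool was entered as a random block, limma called Hoxb3 (adjusted p 0.010) among 114 genes called in all (2.59%). That fit rests on technical arrays and applies the same within-pool correlation, estimated over all genes, to each gene. Hoxb3 itself had a standard deviation of 1.15 between pools and 0.18 within them.

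Of the control transcripts, Lys, Dap, Phe and Cre were also higher in both I3 pools than in both I1 pools. BioB, BioC and BioDn overlapped between these families. Lys read 10.65 in I1a and 10.84 in I1b, against 12.003 in I3a and 11.64 in I3b. In the same order of pools, Dap read 4.57 and 5.09 against 6.14 and 5.86. Phe read 3.98 and 3.94 against 4.06 and 4.13, and Cre 14.84 and 14.54 against 15.13 and 14.87. In I2, where Hoxb3 read 6.54, Lys was 11.51 and Dap 6.33. In E2, where Hoxb3 read 7.09, they were 10.37 and 4.71. The 3 neuronal markers measured were lower in both I3 pools than in both I1 pools, with a median I1 minus I3 difference of 1.93. The median over all genes kept was -0.04, and neither these markers nor any other gene was called. Syt1 was lowest in I3a (6.68) and Rbfox3 in I3b (5.39), while Snap25 was lowest in I2 (12.40). Of 5 astrocyte markers, Gja1 stood at 4.19 in I3a, and the others at 2.39 to 2.44 there. The part of these in the Hoxb3 difference was not tested. In bulk RNA of pooled cells, fewer cells with a transcript and less of it per cell cannot be told apart.

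Within the named families, pools were compared on all 14 arrays with technical error. Hoxb3 was lower in E1 than in E2, by -1.14 log2 units (SE 0.17, adjusted p 5.06e-04 by limma), and the arrays of the 2 pools did not overlap. In this comparison 7.39% of genes were called. It was lower in I1a than in I1b, by -1.34 (SE 0.17, adjusted p 8.34e-05 by limma), again without overlap, where 13.1% of genes were called and the median of all genes tested was itself -0.22. With each array centred on its median the Hoxb3 difference was -1.10. For neither pair is the share of all genes without overlap of arrays given here. Between I3a and I3b Hoxb3 differed by 0.03 (SE 0.17, adjusted p 0.937 by limma), beside 9.91% of genes called. Hoxb3 thus differed between the members of 2 families beyond the technical error, while in the I3 family its interval of -0.35 to 0.40 held no difference as wide as those.

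Hoxa5 was not called between any of these pairs. It differed by -0.03 between E1 and E2 (adjusted p 0.928 by limma), by -0.34 between I1a and I1b (adjusted p 0.192) and by 0.28 between I3a and I3b (adjusted p 0.305). Its interval in the first pair ran from -0.46 to 0.39, and in the others it reached -0.76 and 0.71, so none of the 3 held a difference of 1 log2 unit.

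**Figure D3:**
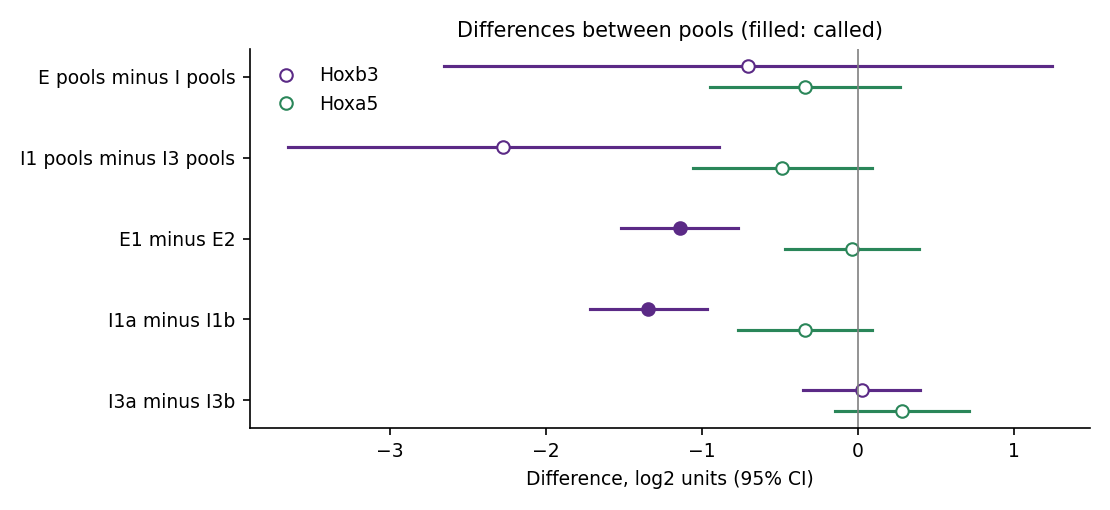
Difference of the first-named minus the second-named group in log2 units (points) with its 95% interval (lines) for Hoxb3 and Hoxa5 in 5 comparisons, filled where called. The upper 2 rows rest on pool means and the lower 3 on technical error. Hoxb3 is called for E1 minus E2 at -1.14 and I1a minus I1b at -1.34, and Hoxa5 in none.

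The other 30 members did not reach 5 in any pool. Their highest pool means had a median of 2.52, close to the floor of the scale at 2.39, and 25 of them stayed under 3. Of their 420 array values, 2 were at or above 5. On 21 of the 30 genes all 14 arrays lay within 0.5 of the lowest array. The nearest to the threshold were Hoxa4, Hoxb5os and Hoxa3.

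Hoxa4, a group 4 gene used from the caudal hindbrain backwards, read 5.39 and 4.56 in E2, a mean of 4.97 that lay just under the threshold. In I3a its arrays disagreed, at 4.64 and 2.84. On the other 10 arrays it read 2.49 to 2.89. E2 was thus the only pool with both arrays of Hoxa4 above 4. This probe set, like that of Hoxa5, bears the suffix _x_at and no accession, and a second Hoxa4 probe set read at most 2.40 on any array. In a limma F test of all 16244 genes without a filter, Hoxa4 was called, at 2.47 between its highest and lowest pool (adjusted p 0.0407), beside 15.9% of genes. Its E1 minus E2 difference in that fit was -2.17 (SE 0.52, adjusted p 0.0531 by limma).

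Hoxb5os, which is transcribed from the Hoxb cluster and overlaps Hoxb5 and Hoxb6, read 5.24 on the first array of I1b and 3.48 on the second. It read 3.35 to 3.82 on the arrays of the other pools. The 1 high value was therefore not repeated on the second array of the same pool. Hoxb5 and Hoxb6 in I1b were at 2.45 and 2.39.

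Hoxa3, the group 3 paralogue of Hoxb3, read 3.56 and 3.09 in E2, its highest pool. On single arrays it reached 3.49 in I3b and 3.11 in I1b, and its other 10 arrays lay between 2.39 and 2.87. Read against 5, the 2 measured coding genes of group 3 thus differed. Hoxb3 was above 5 in every pool, and Hoxa3 on no array above 3.56.

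**Figure D4:**
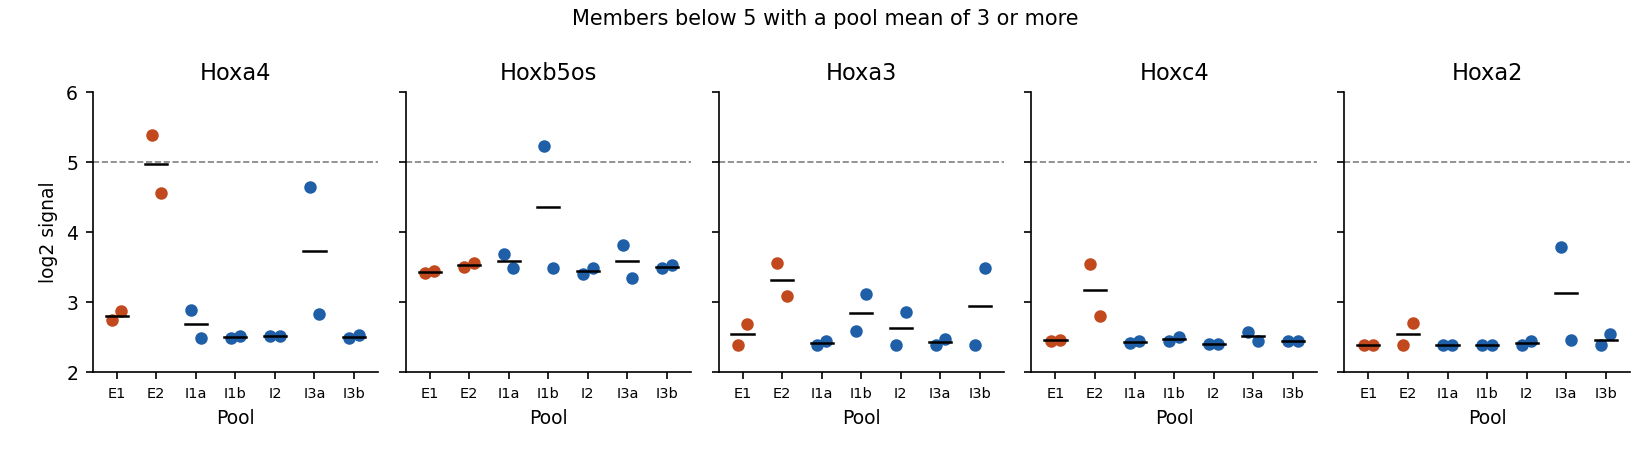
Log2 signal on each array (points) and pool means (bars) for the 5 members under 5 with a pool mean of 3 or more: Hoxa4, Hoxb5os, Hoxa3, Hoxc4 and Hoxa2. The dashed line marks 5, which is passed by 1 array of Hoxa4 in E2 (5.39) and 1 of Hoxb5os in I1b (5.24).

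By paralogue group, the genes of groups 1 and 2, which pattern the rostral hindbrain segments, were low throughout. Hoxb1, the gene of the fourth hindbrain segment, stayed at 2.39 in every pool, and Hoxd1 reached 2.58. Hoxa2, the most anteriorly used Hox gene, read 3.78 on 1 array of I3a and 2.47 on the other, and Hoxb2 at most 3.22 on any array. In group 4, Hoxc4 read 3.55 and 2.80 in E2 and at most 2.58 elsewhere, and Hoxb4 reached a pool mean of 2.54. Hoxc4 and Hoxa2 were chosen for naming after their values were seen. In group 5, Hoxb5 and Hoxc5 had highest pool means of 2.46 and 2.70, unlike Hoxa5. Each group with a gene above 5 thus also held a measured paralogue under 5 in every pool.

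Genes of groups 6 to 13, used in the spinal cord and the caudal body, had highest pool means of 2.39 to 2.96. Group 6 held Hoxb6 and Hoxc6 (2.39 and 2.83), group 7 Hoxa7 and Hoxb7 (2.56 and 2.44), and group 8 Hoxc8 and Hoxd8 (2.39 and 2.45). The 4 genes of group 9, one in each cluster, stood between 2.40 and 2.50. In group 10 Hoxa10, Hoxc10 and Hoxd10 stood at 2.61, 2.64 and 2.39, and in group 11 Hoxa11 at 2.44. In group 13 Hoxa13, Hoxc13 and Hoxd13 stood at 2.43, 2.39 and 2.96, the last from arrays of 3.38 and 2.54 in E1. The antisense transcripts Hoxd3os1 and Hoxa11os reached 2.68 and 2.45. A probe set shared by Hoxb7 and Hoxb8 read at most 2.41 on any array.

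By cluster, 1 of 9 Hoxa genes, 1 of 8 Hoxb genes, 0 of 7 Hoxc genes and 0 of 5 Hoxd genes reached 5. A level near the floor was not detectable on these arrays and does not show that a transcript was absent. Without the filter 32 members were tested, and limma called 0 between E and I pools and 0 between I1 and I3, beside 0.0123% and 0.00616% of genes called. An unadjusted p under 0.05 was found for 2 members in each (6.25%), beside 4.67% and 6.20% of all genes. Between E and I pools, Hoxc10 had an adjusted p of 0.0015 by limma for a difference of 0.19 log2 units near the floor, too narrow for a call. On single arrays Hoxc10 read 2.43 and 2.78 in E1 and 2.80 and 2.47 in E2, beside 2.43 to 2.44 in the I pools.

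Of the 9 Hox cofactor genes listed, 8 had a probe set and 3 reached 5: Pbx3, Meis1 and Meis2, which encode homeodomain partners of Hox proteins. All 3 were called by the limma F test among pools, against 55.2% of all genes. Pbx3 was called in every pair, each with an SE of 0.18. It was lower in E1 than in E2 (-1.21, adjusted p 4.29e-04 by limma), lower in I1a than in I1b (-2.11, adjusted p 4.13e-06) and higher in I3a than in I3b (3.70, adjusted p 3.93e-08). Meis2 was lower in I1a than in I1b (-1.43, SE 0.10, adjusted p 1.03e-06 by limma) and highest in I2, at 12.60. None was called between E and I pools or between I1 and I3, where 0.0227% and 0% of all genes were. Pbx3 thus stood at 7.27 in I3a and 3.56 in I3b, the pools in which Hoxb3 was highest and nearly equal, while Meis1 stood at 6.81 and 6.57 there.

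**Figure D5:**
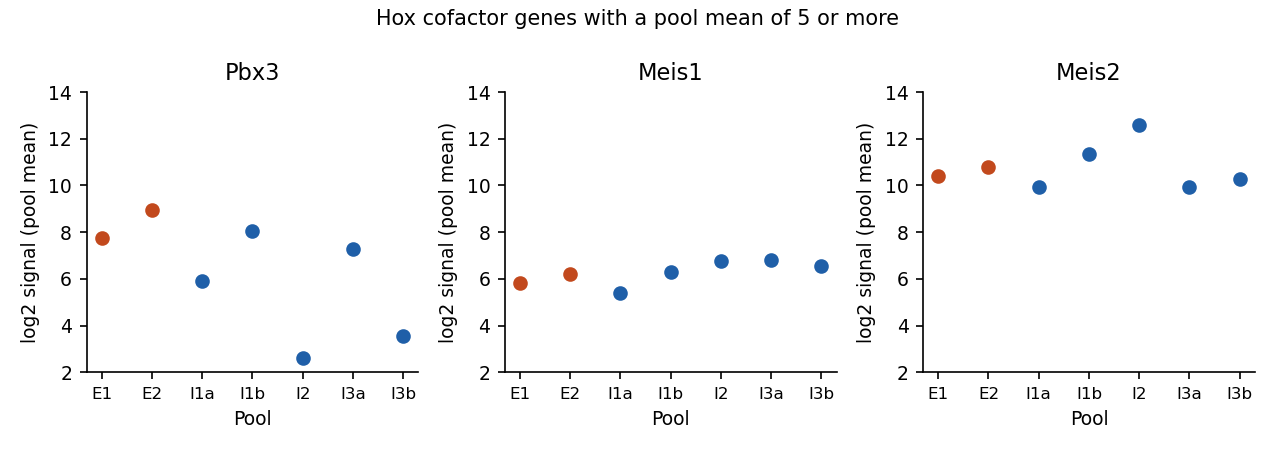
Pool means (log2 signal) of the 3 Hox cofactor genes that reached 5, Pbx3, Meis1 and Meis2, with E pools in orange and I pools in blue. Pbx3 spans 2.60 in I2 to 8.96 in E2, and Meis1 spans 5.41 to 6.81.

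Genes that act upstream of the Hox clusters were taken as 3 lists, and the share reaching 5 is read against 27.1% of all genes. None of the 5 measured hindbrain segment regulators (Egr2, Gbx2, Cdx1, Cdx2 and Cdx4) reached 5, with a highest pool mean of 3.0 (Cdx2). Of 11 retinoic acid pathway genes 1 did, the nuclear receptor gene Rxrb, at 5.21 in I3a, and it was not called in any comparison. Of 16 genes for Polycomb and Trithorax proteins, which keep Hox genes silent or active, 7 reached 5, among them Phc2, Ezh1, Men1 and Bmi1, so the shares differed between the lists. Bmi1, a Polycomb subunit, was higher in E1 than in E2 by 1.13 (SE 0.26, adjusted p 0.0075 by limma). Rnf2, the ubiquitin ligase of that complex, was lower in I3a than in I3b by -1.18 (SE 0.22, adjusted p 0.0019 by limma). Both of these pools were under 5, at 3.22 and 4.40, and Rnf2 passed the filter through I2 alone (6.08). Of the 7 genes, 3 were called by the limma F test among pools (Bmi1, Eed and Rnf2), where 55.2% of all genes were. Eed reached 5 in I3b alone (5.10), so its call and that of Rnf2 include the pool that passed the filter. None of the 7 genes was called between E and I or between I1 and I3, beside 0.0227% and 0% of all genes.

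The pools were read for markers of broad cell classes and of brain position. No marker of transmitter class or of a single vestibular type was among them, so the labelled types were not checked. The 3 neuronal genes measured were read in all pools: Snap25 at 12.40 to 13.57, Syt1 at 6.68 to 11.47 and Rbfox3 at 5.39 (I3b) to 10.78 (E2). None of 5 astrocyte, 4 oligodendrocyte, 2 microglial, 3 endothelial and 2 Purkinje cell markers reached 5, the highest being Gja1 at 4.19 in I3a. Ttr of the choroid plexus stood at 4.94 in I3b and 4.44 in I1a, and at 2.61 or below elsewhere. Their part in the Hox values was not tested. The 5 measured genes of forebrain and midbrain position (Emx1, Emx2, Otx1, En1 and En2) had pool means of at most 2.61. Over the 14 arrays 15.1% to 16.4% of probe sets reached 5, and arrays of the same pool correlated at 0.981 to 0.992 across the genes kept.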

How the data were processed

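The authors deposited log2 signals of Affymetrix arrays, made with affy and GCRMA per the submitters' processing notes. Versions, filters and the log base are not given in the sources used here, and the base was taken from GCRMA's usual output and the range of 2.39 to 15.9. GCRMA sets weak probe sets to a floor, so low differences are compressed. The table holds 30843 probe sets, of which 24034 have 1 symbol. Symbols of all 32 members were matched by Entrez identifier to RefSeq (GRCm38.p6).

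Genes with a pool mean of at least 5 in any pool were kept (4409). Computation used R 4.3.3 with limma 3.58.1, calling lmFit and then eBayes (trend on), and matplotlib 3.10.9 for figures. Calls required a Benjamini-Hochberg adjusted p under 0.05 over all genes kept together with an absolute difference of 1 log2 unit or more. E against I and I1 against I3 were fitted on pool means, and pairs and the F test on 14 arrays. The fits were also run on simulated data with planted differences. For pool means the simulated spread between pools was below that observed, so those runs do not show how the fits perform at the real spread.

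Every member above 5 was named with all values, and below it the 3 nearest the threshold. Of each other list up to 4 genes of highest mean were eligible, besides called ones. The members and lists were chosen with earlier results of these data known. Alternatives covered normalization, probe set choice, filter, floor, trend, block and left-out pools or arrays. No column of another sample was present.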

Additional observations from a re-analysis of the deposited data

How the results depend on the processing

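Hoxb3 kept its direction in every alternative run for I1 against I3, E1 against E2 and I1a against I1b. With 1 probe set and all arrays above 5, its estimate could not move with filter, floor, trend, block or probe set choice. Nor could the I1 minus I3 estimate move when a pool outside these families was left out. The direction of Hoxb3 could change only with other normalizations or with compared pools or arrays left out. Its difference between I1 and I3 ranged from -2.94 (without the I1b pool) to -1.60 (without I1a), with adjusted p from 0.010 to 0.699 by limma. It was called in 2 fits with the pool as a random block, where 1 Hox gene was called without the replicate block and 1 with it (adjusted p 0.0166), beside 2.59% and 2.36% of all genes. Its calls for E1 against E2 and I1a against I1b held in all 13 alternatives each. With the replicate block, 1 Hox gene was called in either pair, beside 7.42% and 13.1% of all genes. Deviations of arrays of the same number correlated between pools at -0.12 to 0.21, over 0.1 in 4 of 21 pairs of pools. Whether the numbers pair the arrays was not tested further.

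The count of 2 Hox genes reaching 5 became 1 (Hoxb3) when probe sets with a letter before _at were left out. It became 4 at a threshold of 4, with Hoxa4 and Hoxb5os added. Without 1 replicate number it was 2 to 4, the latter without replicate 2 and with the same 4 genes. With arrays centred on the median Hoxa4 passed the filter. As deposited, its pool nearest the threshold was E2 (4.97), followed by I3a (3.74). After centring, Hoxa4 was called beside Hoxb3 for E1 against E2 (2 genes, beside 7.43% of all) and among the 7 pools (2 genes, beside 52.7%). It was called alone for I3a against I3b (1 gene, beside 9.37%). The calls that include E2 draw on the pool nearest the filter, so they are no separate support. In I3a its deposited arrays disagreed, at 4.64 and 2.84. The cause of these changes was not tested. Without the filter 2 Hox genes were called among the 7 pools, beside 15.9% of all genes. With single arrays left out that count was 1 to 2. The latter came without E2 replicate 1, when Hoxa5 was called beside 55.1% of all genes. For E against I the count stayed at 0 in all 19 alternatives, which called at most 0.136% of all genes. The number of pools, and signals near the floor, limit all these statements.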
